A study of Mus musculus with 10 samples.

Results

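The genes followed here are 10 that encode the calcium channels, pumps and store sensors of the mouse egg: Itpr1, Itpr2, Itpr3, Trpm7, Trpv3, Cacna1h, Atp2a2, Atp2b1, Orai1 and Stim1. They were found through the platform's gene symbols, which name 26 probe sets for 8 of the 10 genes, out of 18193 genes named on the array. Itpr1 and Trpv3 have no listed probe set and were not analysed here. Each gene is represented by the probe set with the highest mean over the 10 arrays, with its further probe sets beside it.

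Fertilization starts development through repeated rises of calcium inside the egg. A sperm phospholipase C makes inositol trisphosphate, which opens receptor channels (the Itpr genes) in the endoplasmic reticulum, the calcium store. The store is refilled by a SERCA pump, for which Atp2a2 encodes one form, and calcium that crosses the plasma membrane through channels such as TRPM7, TRPV3 and the T-type channel of Cacna1h sustains the rises. Stim1 encodes a sensor of store calcium, Orai1 the channel that it opens, and Atp2b1 a pump that moves calcium out of the cell. The growing oocyte builds up these mRNAs and proteins before meiotic maturation.

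Messenger RNA was measured by oligonucleotide array in fully grown mouse oocytes of the germinal vesicle stage. The control group is 4 samples from non-transgenic mice, with replicate numbers 1, 2, 7 and 8. The other group is 6 samples from RNAi-transgenic mice, numbered 4, 5, 6, 11, 12 and 13, whose transgene lowers basonuclin mRNA by RNA interference in oocytes alone. Each sample held about 50 oocytes of 1 mouse. The labels used here leave out strain, age, the promoter of the transgene and the number of transgenic lines. The comparison asks which oocyte mRNAs differ when basonuclin is low. In such bulk RNA, a large change in some oocytes and a smaller change in all of them cannot be told apart.

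The targeted gene matched the labels in every sample. Bnc1, which encodes basonuclin, was between log2 11.40 and 11.76 in non-transgenic and between 3.67 and 4.26 in transgenic samples, at least 95.1-fold lower. Median intensity per array lay between 17.5 and 20.1. Of 14 oocyte markers, 13 have a probe set and all 13 passed the filter, with a summed intensity of 207618 to 220132 in non-transgenic and 200868 to 234324 in transgenic samples. In limma at an adjusted p below 0.05, 1 of the 13 rose and 2 fell (23.1%, against 37.2% of all genes tested). The filter level was log2 5 (intensity 32), to be exceeded on 4 or more arrays, and values below it are not ordered.

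None of the calcium genes tested passed. Of the 8 genes with a probe set 7 passed the filter, and 0 of these 7 changed in limma at an adjusted p below 0.05, whereas 37.2% of the 10590 genes tested did. At an unadjusted p below 0.05 the count was 1, Trpm7, and the exact permutation test, also unadjusted, passed the same gene. The groups did not overlap for 0 of the 7, against 28.0% of all genes tested. The median change of the 7 genes was -0.01, and that of all genes tested was -0.03. The summed intensity of the 8 genes was 25068 to 27454 in non-transgenic and 23094 to 27448 in transgenic samples, so the groups overlapped. Most of this sum was Atp2a2, with a mean intensity of 17990.5 in non-transgenic and 17912.7 in transgenic samples. The sum therefore says little of the dimmer genes. A count of 1, again Trpm7, was reached with a filter level of 7, after quantile normalization, without non-transgenic replicate 1 and without transgenic replicate 13.

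**Figure D1:**
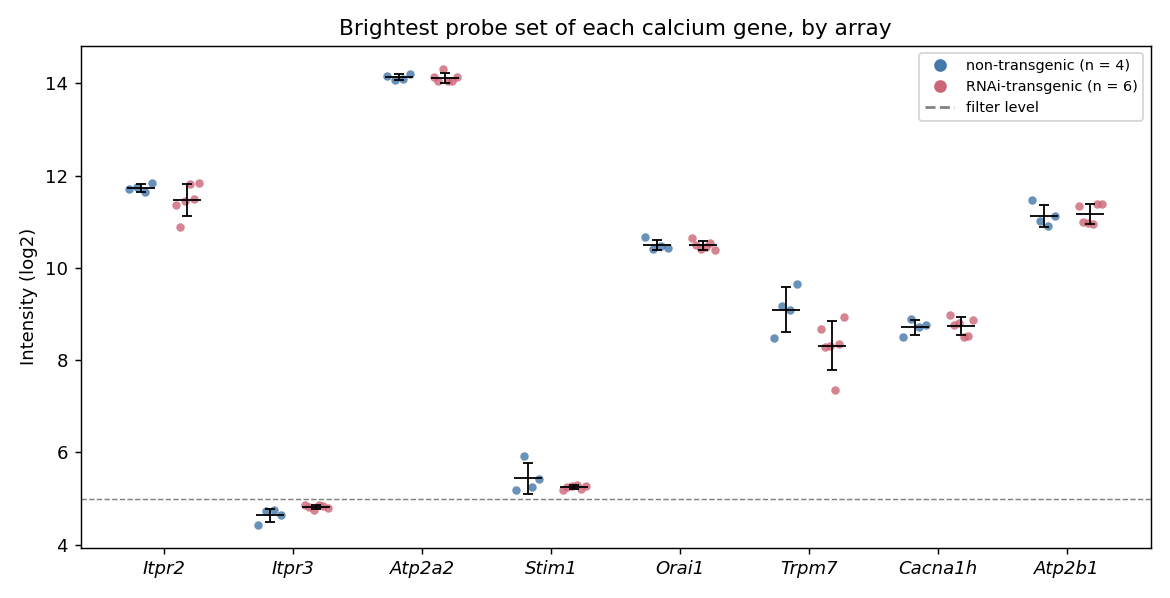
Log2 intensity of the brightest probe set of 8 calcium genes in each of the 4 non-transgenic and 6 RNAi-transgenic arrays (points), with mean and SD (black), and the filter level of 5 (dashed line). The groups overlap for every gene above the filter level, Trpm7 has the widest spread, and Itpr3 lies below the level in all 10 arrays. Heights of different genes are not comparable, since each probe set has its own response.

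**Figure D2:**
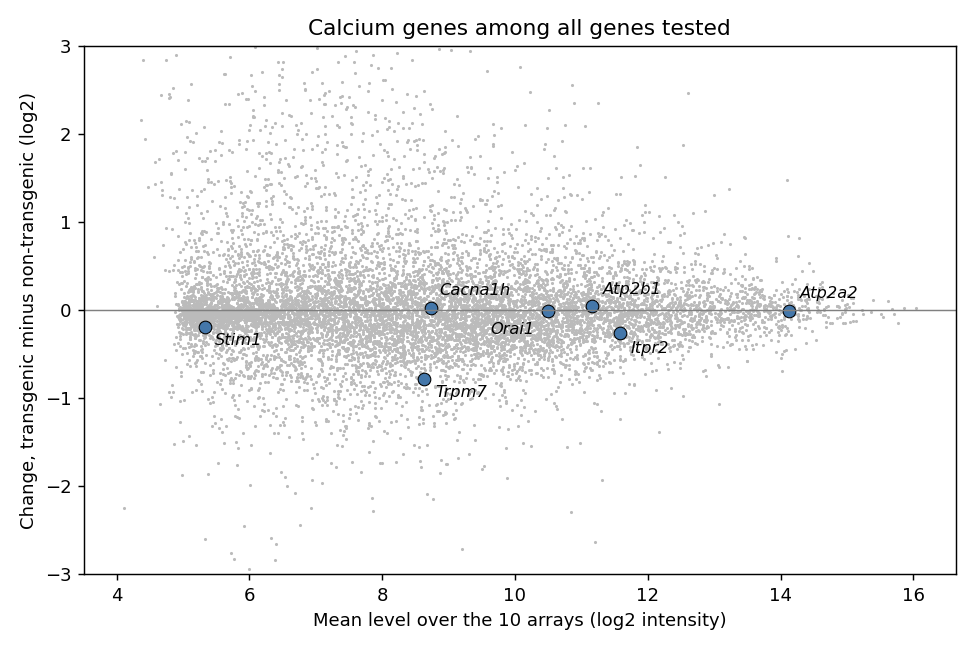
Change (transgenic minus non-transgenic, log2) against mean log2 intensity for the 10590 genes tested (grey), with the 7 calcium genes marked. The 7 genes lie within the cloud, with Trpm7 at -0.78 the farthest from 0, and 123 other genes fall outside the plotted range of -3 to 3.

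Store release is carried by the inositol trisphosphate receptors. The receptor gene Itpr1 has no listed probe set, so the values below leave it out and do not cover store release as a whole. Itpr2, which encodes the type 2 receptor, had intensities of log2 11.70, 11.75, 11.64 and 11.84 in the non-transgenic samples. The transgenic samples ran from 10.88 through a median of 11.47 to 11.84. The transgenic samples spread more widely, 4 of 6 lay below the lowest control, and 1 equalled the top of the control range within rounding. The change was -0.26 (SE 0.16), with a 95% interval of -0.62 to 0.09, and did not pass in limma (adjusted p = 0.233). On a linear scale the mean intensity was 3406 ± 195 (SD, n = 4) and 2906 ± 662 (SD, n = 6).

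A further Itpr2 probe set, 1444418_at, did pass. It was at log2 8.33, 8.46, 8.52 and 8.32 in the non-transgenic samples and from 7.74 through a median of 8.03 to 8.22 in the transgenic samples. All 6 transgenic samples were lower than every control. In limma fitted over all 18582 probe sets it fell by 0.43 on the log2 scale (SE 0.11, adjusted p = 0.0106), a ratio of 0.741. Within either range of replicate numbers alone it did not pass, at -0.31 for samples 1 to 6 (limma adjusted p = 0.187) and -0.56 for samples 7 to 13 (limma adjusted p = 0.0611). The other 3 Itpr2 probe sets that passed the filter changed by -0.07, -0.17 and -0.14, and none passed in limma. The last Itpr2 probe set was below the filter level on all arrays. Within arrays, the difference of 1444418_at from the brightest Itpr2 probe set changed by -0.17, transgenic minus non-transgenic. No difference between groups was detected (exact permutation p = 0.495, adjusted p = 0.594 over 12 such comparisons). The interval of the brightest probe set includes a fall of 0.43.

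Itpr3, the type 3 receptor gene, was below the filter level in every array. Its single probe set was at log2 4.43, 4.73, 4.74 and 4.64 in the non-transgenic and 4.75 to 4.87 in the transgenic samples. The values did not overlap, but all of them lie where the arrays give no reliable level, so no call and no fold is given.

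Among 19 other genes of release channels and their regulators, 18 have a probe set and 11 were tested. Of these 11, 3 rose and 1 fell (36.4%, against 37.2% of all genes), with a median change of -0.00. Itprip, whose product binds inositol trisphosphate receptors and damps release, rose 2.01-fold, from log2 8.46, 8.40, 8.21 and 8.15 to a transgenic range of 9.15 to 9.68 (limma adjusted p = 5.74e-05). Every transgenic sample was above every control. Tmco1, which encodes a channel that lets calcium leak from an overfilled store, rose by 0.43 (limma adjusted p = 0.00934). Ryr1, a ryanodine receptor gene, rose by 0.47 near the filter level (limma adjusted p = 0.0193), and lost this call without non-transgenic replicate 7 (adjusted p = 0.0599). Ryr2 was below the filter level.

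The store is filled by the SERCA pump. Atp2a2, which encodes SERCA2, had close means in both groups. By the brightest probe set it was at log2 14.17, 14.07, 14.10 and 14.20 in the non-transgenic samples and from 14.05 through a median of 14.10 to 14.32 in the transgenic samples. The change was -0.01 (SE 0.06) and the 95% interval of the fold ran from 0.909 to 1.09 (limma adjusted p = 0.927). Its 3 further probe sets above the filter changed by 0.12, 0.06 and -0.25 and none passed in limma. The SERCA genes Atp2a1 and Atp2a3 were below the filter level.

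Among 18 other genes of pumps and exchangers, 17 have a probe set and 7 were tested. Of these 7, 2 rose and 1 fell (42.9%, against 37.2% of all genes), with a median change of 0.15. Atp2c1, which encodes a calcium and manganese pump of the Golgi, rose by 0.48 from a mean of log2 11.93 ± 0.08 (SD, n = 4) to 12.41 ± 0.15 (SD, n = 6), with no overlap (limma adjusted p = 0.000849). Slc24a3, which encodes a potassium-dependent sodium-calcium exchanger, fell by 0.58 to 9.62 ± 0.24 (SD, n = 6), also with no overlap (limma adjusted p = 0.00377). With the mean of all probe sets in place of the brightest, Atp2c1 did not pass (0.87, limma adjusted p = 0.0886). Slc8a3, a sodium-calcium exchanger gene named after its values were seen, split within the transgenic group. Its values were 6.00, 6.16 and 6.25 in transgenic replicates 4, 6 and 13 and 7.87, 8.47 and 8.00 in replicates 5, 11 and 12, against 5.47 to 6.30 in controls. The mean change of 1.28 did not pass (limma adjusted p = 0.0653), and it passed when replicate 4, 6 or 13 was left out (adjusted p = 0.0339, 0.0423 and 0.0494).

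The probe sets of the plasma membrane pump differed in their change. Atp2b1, which encodes PMCA1, was at log2 11.47, 11.02, 10.90 and 11.13 in the non-transgenic samples and from 10.95 through a median of 11.17 to 11.39 in the transgenic samples by its brightest probe set. The groups overlapped fully, with a change of 0.04 (SE 0.14), a 95% interval of -0.25 to 0.34 and an adjusted p of 0.834 in limma. The next probe set, 1428937_at, changed by 0.17 (limma adjusted p = 0.195). The dimmest, 1452969_at, was at 7.91, 7.39, 7.34 and 7.41 in the non-transgenic and from 6.77 through a median of 7.08 to 7.26 in the transgenic samples. There every transgenic sample was below every control, and the fall was 0.48 on the log2 scale (fit over all probe sets in limma, adjusted p = 0.0201).

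Relative to the brightest probe set of the same array, 1452969_at was lower by a further 0.52 in transgenic samples, with no overlap (exact permutation p = 0.00476, the smallest the design allows, adjusted p = 0.0286 over 12 comparisons). The within-array difference was -3.62 ± 0.08 (SD, n = 4) in controls and -4.14 ± 0.16 (SD, n = 6) in transgenic oocytes. The shift lay between -0.58 and -0.48 with each replicate left out, so it did not rest on the high control, replicate 1. The arrays thus show unequal change within Atp2b1 and do not show which transcript form each probe set reads. In the fit of single probe sets, the fall was 0.35 without non-transgenic replicate 1 and still passed (limma adjusted p = 0.0447). Within samples 1 to 6 it was -0.61 and within samples 7 to 13 -0.34, and neither passed (limma adjusted p = 0.100 and 0.241).

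The related gene Atp2b3 rose by 0.66, from 6.92, 7.35, 7.51 and 7.61 to a range of 7.80 to 8.20 (limma adjusted p = 0.00377). With the mean of its probe sets the change was 0.28 and did not pass (limma adjusted p = 0.0554). Atp2b2 and Atp2b4 were below the filter level.

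Store-operated entry runs through STIM sensors and ORAI channels. Orai1 was at log2 10.67, 10.41, 10.47 and 10.44 in the non-transgenic samples and from 10.39 through a median of 10.47 to 10.65 in the transgenic samples. The ranges nearly coincided. The change was -0.01 (SE 0.08), with a fold interval of 0.886 to 1.12 (limma adjusted p = 0.962). Its other probe set, 1424989_at, was higher by 0.21 and did not pass in limma (adjusted p = 0.125), though 4 of 6 transgenic samples lay above every control. Orai2 and Orai3 were below the filter level.

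Stim1 was barely above the filter level. Its brightest probe set was at log2 5.18, 5.91, 5.26 and 5.42 in the non-transgenic samples and within 5.18 to 5.29 in the transgenic samples, with a median of 5.27. The wide control spread came from replicate 2. The change was -0.19 (SE 0.13, limma adjusted p = 0.257), and the second probe set was below the level on all arrays. The brightest one carries the x_at ending, given by the maker to probe sets that can bind other transcripts.

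Stim2, the paralog of Stim1 that senses small losses of store calcium, rose. It was at log2 8.39, 8.46, 8.65 and 8.54 in the non-transgenic samples and from 9.20 through a median of 9.32 to 9.44 in the transgenic samples. All 6 were above every control, and the rise was 1.74-fold (0.80, SE 0.08, limma adjusted p = 2.14e-05). It kept its call under every alternative listed for it, including either replicate number range. The difference between the changes of Stim2 and Stim1 was not tested.

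Of 19 other genes of store-operated entry and its regulators, 17 have a probe set and 10 were tested, of which 5 rose and 2 fell (7 of 10, against 37.2% of all genes), with a median change of 0.30. Trpc1, a cation channel gene linked to this entry, rose from log2 5.14, 5.29, 6.58 and 6.14 to a range of 7.01 to 7.64, or 2.85-fold (limma adjusted p = 0.00115). Its lowest transgenic sample was above its highest control. Saraf, which encodes a brake on store-operated entry, rose by 0.42 and Trpc4 by 0.73 (limma adjusted p = 0.00121 and 0.00786); both were named after their values were seen. Homer1, a scaffold gene, fell by 0.41 by its brightest probe set (limma adjusted p = 0.00511), and the mean of its probe sets pointed the other way, at 0.23 (adjusted p = 0.069). Septin4 was above the filter level in 2 of 4 controls, so it passed the filter only with transgenic arrays. It was at least 1.68-fold higher (limma adjusted p = 0.000522). Septin2 fell by 0.29 (limma adjusted p = 0.0404), and its adjusted p ran from 0.0296 to 0.12 with each sample left out.

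Trpm7 is an entry channel gene of the plasma membrane, whose product joins a channel for calcium and magnesium to a kinase. It was at log2 8.48, 9.18, 9.08 and 9.65 in the non-transgenic samples. The transgenic samples ran from 7.36 through a median of 8.32 to 8.93. In 4 of 6 transgenic samples it was below the lowest control, and none was above the highest. The change was -0.78 (SE 0.29), a ratio of 0.582 with a 95% interval of 0.373 to 0.906. It missed the threshold in limma (adjusted p = 0.0552), and the unadjusted exact permutation p was 0.0429.

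The Trpm7 value depended on settings and on single arrays. It passed with a filter level of 7 (limma adjusted p = 0.0414), after quantile normalization (0.044), without non-transgenic replicate 1 (0.0252) and without transgenic replicate 13 (0.033). Over the alternatives fitted for the gene the adjusted p ran from 0.0252 to 0.313. The change was -0.41 within samples 1 to 6 and -1.15 within samples 7 to 13. Transgenic replicate 11 was the lowest array both here, at 7.36, and at the probe set 1416801_at, at 4.49.

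The further Trpm7 probe sets did not pass. The second, 1416801_at, changed by -0.36 with an interval of -1.26 to 0.53, and the third, 1416800_at, by 0.02 near the filter level (limma adjusted p = 0.536 and 0.928). Relative to the brightest probe set of the same array, 1416800_at was higher by 0.81 in transgenic samples (exact permutation p = 0.00476, adjusted p = 0.0286 over 12 comparisons). Its values of log2 4.88 to 5.83 lie around the filter level, and the part of this low signal in the difference was not tested.

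Cacna1h, the gene of the T-type channel CaV3.2, did not pass. It was at log2 8.50, 8.89, 8.72 and 8.76 in the non-transgenic samples and from 8.51 through a median of 8.77 to 8.99 in the transgenic samples. The groups overlapped, with 1 transgenic sample above the highest control. The change was 0.02 (SE 0.12), with a fold interval of 0.849 to 1.22 (limma adjusted p = 0.904). The other Cacna1h probe set was below the filter level on all arrays.

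**Figure D3:**
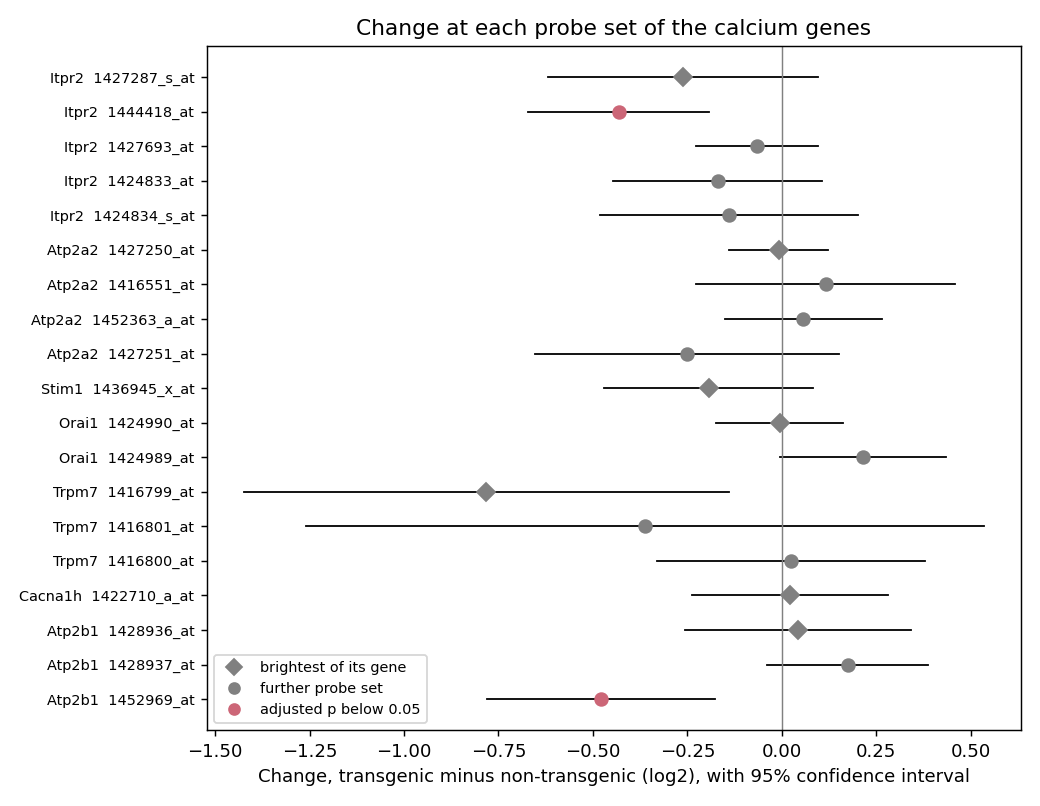
Change (transgenic minus non-transgenic, log2) with its 95% confidence interval for the 19 probe sets of the calcium genes above the filter, from the fit over all probe sets. Diamonds mark the brightest probe set of a gene and red marks an adjusted p below 0.05, reached by 1 Itpr2 and 1 Atp2b1 probe set.

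Counted by probe set, 2 of the 19 above the filter passed in limma, both lower, where 33.2% of all 18582 probe sets passed and 16.2% passed as lower. Groups did not overlap for the same 2 of 19, against 25.4% of all probe sets. Of the 19, 12 had a change below 0. Probe sets of 1 gene share their mRNA and are not independent.

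Other channels of the plasma membrane include TRP channels, voltage-gated channels and ATP-gated channels. Of 38 such genes, 35 have a probe set and 14 were tested. Of these 14, 5 rose and 0 fell in limma (35.7%, against 37.2% of all genes). None of the rest was lower at an unadjusted p below 0.05. All 5 rises were at least 2-fold, while the median change of the 14 was 0.11. Of the 5, Trpm4 and Cacna2d2 were above the filter level in 2 of 4 controls. These genes passed the filter only with transgenic arrays, so their part in the count is not independent of their rise. Trpm6, the closest relative of Trpm7 and also a channel fused to a kinase, rose 4.58-fold. It was at log2 6.23, 6.09, 6.53 and 6.01 in the non-transgenic samples and from 8.17 through a median of 8.37 to 8.87 in the transgenic samples (limma adjusted p = 7.6e-07). The transgenic samples were all far above the controls.

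Trpm4, a channel that calcium opens to let sodium in, was at 4.02, 5.28, 5.08 and 4.97 in the controls, of which 2 of 4 exceeded the filter level. It ran from 8.29 to 8.71 in the transgenic samples, at least 10.8-fold higher (limma adjusted p = 2.89e-07). P2rx4, an ATP-gated cation channel, rose 3.82-fold from 7.23 ± 0.11 (SD, n = 4) to 9.16 ± 0.26 (SD, n = 6). The other rises were in accessory subunits of voltage-gated channels, named after their values were seen. Cacnb2 rose 3.03-fold, and Cacna2d2, above the level in 2 of 4 controls, was at least 7.51-fold higher (limma adjusted p = 8.69e-06 and 0.000116). Neither Cacna1h nor the other tested channel-forming genes Cacna1a, Cacna1d and Cacna1g passed.

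**Figure D4:**
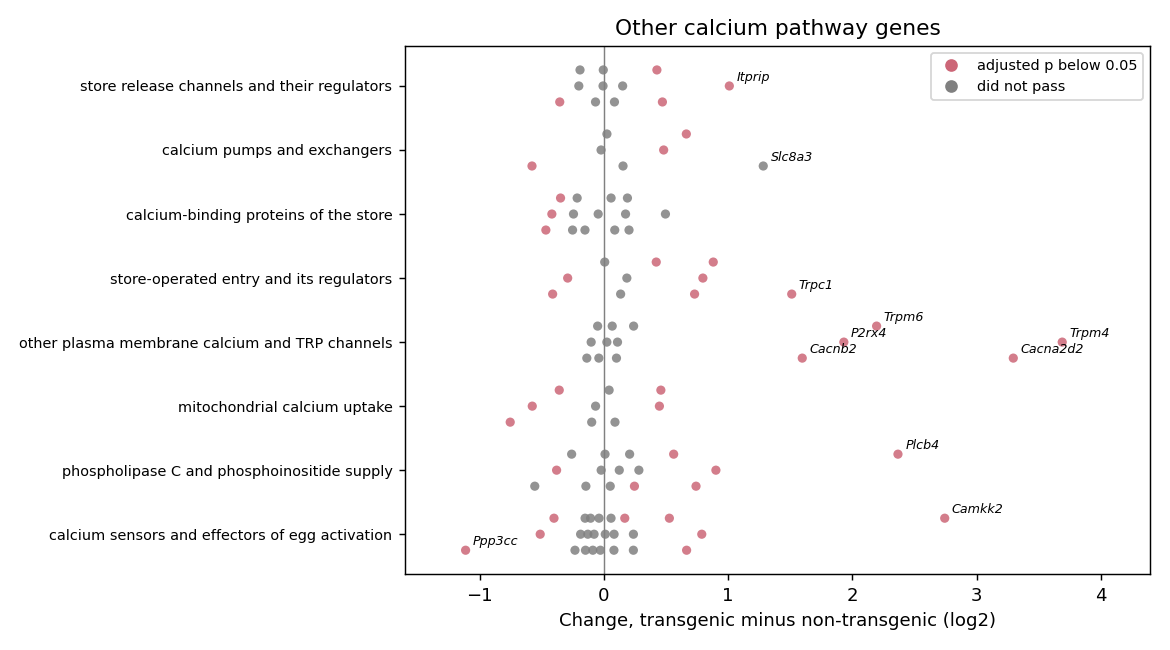
Change (transgenic minus non-transgenic, log2) of the 104 other calcium pathway genes tested, by list, with red for an adjusted p below 0.05 and names for changes over 1 in size. Of these, 27 rose and 14 fell, and the 5 called channels of the plasma membrane all lie to the right of 1; vertical position within a list has no meaning.

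Taking the 8 lists of other calcium genes together, 41 of 104 tested genes passed, or 39.4%, near the 37.2% of all genes. Of these, 27 rose and 14 fell, and the median change was 0.05. The lists hold 197 genes, of which 182 have a probe set and 78 were below the filter. The count of lower genes was 9 without non-transgenic replicate 1. In 12 of the 104 genes at least 1 control was not above the filter level, so that they passed the filter only with transgenic arrays, and 5 of these 12 are among the 41. For 1 of the 104 no control was above the level.

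Calcium-binding proteins of the store hold and fold the contents of the reticulum. Of 18 genes, all with a probe set, 14 were tested, of which 0 rose and 3 fell in limma (21.4%, against 37.2% of all genes), with a median change of -0.10. Canx, which encodes the lectin chaperone calnexin, fell by 0.42 from log2 12.87 ± 0.06 (SD, n = 4) to 12.45 ± 0.10 (SD, n = 6), with no overlap (limma adjusted p = 0.000313). Hsp90b1, the gene of the chaperone GRP94, fell by 0.47, and its control replicate 1, at 12.21, lay within the transgenic range (limma adjusted p = 0.00798). Calr, the gene of the main store buffer calreticulin, was named after its values were seen. It was at 13.58 ± 0.17 (SD, n = 4) and 13.67 ± 0.16 (SD, n = 6), a change of 0.09 with an interval of -0.12 to 0.30.

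Mitochondria take up part of the released calcium. Of 12 genes, 10 have a probe set and 9 were tested. Of these 9, 2 rose and 3 fell (55.6%, against 37.2% of all genes), with a median change of -0.07. Micu2, a gatekeeper of the uniporter, fell by 0.75 from log2 10.03 ± 0.20 (SD, n = 4) to 9.27 ± 0.35 (SD, n = 6), with no overlap (limma adjusted p = 0.00677). Letm1, an ion exchanger gene of the inner membrane, fell by 0.58, and Mcur1, a regulator of the uniporter, rose by 0.45 (limma adjusted p = 0.00859 and 0.00279). Vdac2 rose by 0.46 and Smdt1 fell by 0.36, with weaker calls (limma adjusted p = 0.0381 and 0.0366). With each sample left out, their adjusted p reached 0.107 and 0.111. The pore gene Mcu, named after its values were seen, changed by -0.07 with an interval of -0.26 to 0.12 and did not pass (limma adjusted p = 0.588).

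Phospholipase C makes the trisphosphate that opens the store. Of 32 genes of phospholipases and of phosphoinositide supply, 31 have a probe set and 15 were tested. Of these 15, 5 rose and 1 fell (40.0%, against 37.2% of all genes), with a median change of 0.12. Plcb4, a phospholipase gene of receptor signalling, was at log2 6.61, 6.93, 6.47 and 7.14 in the non-transgenic samples and from 8.88 through a median of 9.08 to 9.66 in the transgenic samples. The groups were well apart, and the rise was 5.16-fold (limma adjusted p = 1.72e-06). Pip5k1a, a kinase gene for the lipid substrate, rose by 0.90, and Pi4ka, which acts a step earlier, fell by 0.38 (limma adjusted p = 0.00326 and 0.00318). The sperm phospholipase gene Plcz1 was below the filter level.

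Sensors and effectors carry the calcium signal to cell cycle and cortical granules. Of 41 genes, 36 have a probe set and 24 were tested. Of these 24, 5 rose and 3 fell (33.3%, against 37.2% of all genes), with a median change of -0.03. Camkk2, a kinase gene upstream of other calmodulin kinases, was above the filter level in 3 of 4 controls and at 7.81 to 8.66 in transgenic samples, at least 6.19-fold higher (limma adjusted p = 7.57e-06). Camk4 rose by 0.79 (limma adjusted p = 4.19e-05). Camk2g, the kinase gene known for resuming the egg's cell cycle, and Wee2, the gene of a kinase it acts on, were named after their values were seen. They changed by 0.08 and -0.08 and did not pass in limma (adjusted p = 0.447 and 0.171).

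The 3 genes that fell were all catalytic subunits of calcineurin, the calmodulin-dependent phosphatase. Ppp3cc fell by 1.11, from log2 7.41, 7.98, 7.71 and 7.36 to a transgenic range of 6.15 to 6.98, with no overlap (limma adjusted p = 0.000964). Ppp3cb fell by 0.40 and Ppp3ca by 0.51, with overlap and weaker calls (limma adjusted p = 0.0359 and 0.0372). Ppp3cb lost its call without non-transgenic replicate 7 or 8 or transgenic replicate 4, 5, 6 or 11, with adjusted p up to 0.109. Ppp3ca lost it without non-transgenic replicate 1, 7 or 8 or transgenic replicate 5 or 13, with adjusted p up to 0.0889. After median centring neither passed (limma adjusted p = 0.0929 and 0.0675).

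Markers of other cells of the ovary moved with the groups to some degree. Of 15 stroma and vessel markers 6 were tested, of which 4 rose and 1 fell (83.3%, against 37.2% of all genes). The median change of these 6 was 0.96, against -0.03 for all genes tested. Col4a2 rose 2.19-fold and Postn 1.75-fold (limma adjusted p = 7.48e-05 and 0.00383), while Col4a1 did not pass. The summed intensity of the list was 655 to 753 in non-transgenic and 842 to 1115 in transgenic samples. Col1a1, Col1a2, Col3a1, Pdgfra, Pecam1 and Vwf were among those below the filter level. Of 18 granulosa and cumulus markers 9 were tested, of which 2 rose and 0 fell in limma (22.2%). Their median change was 0.55, and both rises were at least 2-fold. The sums of this list were 1856 to 2112 and 1838 to 3008. Its brightest markers Nr5a2, Gja1 and Gata4 did not pass. Foxl2, Amh, Inhba, Has2 and Star were below the level. Of 12 blood and immune markers 4 were tested, and 1 rose and 1 fell (50.0%), with a median change of 0.20. Laptm5 rose 2.09-fold and Srgn fell by 0.56 (limma adjusted p = 0.0217 and 0.000467), while H2-Aa did not pass. The sums of this list were 3510 to 4381 and 2942 to 4591, and Ptprc, Lyz2, Cd68 and Hba-a1 were below the level. The part of such cells in the rises of the channel genes was not tested.

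A feature that the choice of genes did not use is the base composition around their start sites. RefSeq windows of assembly GRCm38.p6, from 250 bases before to 50 after a start, were found for 7 of the 10 genes, with 8 windows. Atp2b1 accounts for the extra window. The tested genes Atp2a2 and Cacna1h have no window, while Itpr3 and Trpv3, which were not tested, do. Of these 8, 7 were rich in CpG (over 50% G and C, with an observed-to-expected CpG ratio over 0.6), as were 33.3% of all 32851 windows. The exception was Trpv3, with 54.7% G and C and a ratio of 0.181, while Trpm7 had 63.7% and 1.16 and Itpr2 73.3% and 0.704. The letters TATAAA were in none of the 8 windows on either strand and in 13.6% of all windows. This describes the windows and says nothing of how the genes are controlled.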

How the data were processed

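The authors' tool was GCRMA, per the submitters' processing notes, which state no version; GCRMA corrects background by probe sequence and normalizes between arrays. The authors deposited 1 intensity per probe set and array, all above 0 and on a linear scale, without detection flags. The deposited intensity was put on the log2 scale with no new normalization. Of 45101 probe sets, 34958 were listed with 1 gene and 932 with several, and 9211 were not listed. The platform's table gave the names, updated by gene number through RefSeq (GRCm38.p6).

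Probe sets above log2 5 in at least 4 arrays were kept, and the brightest per gene was tested with limma 3.58.1 (eBayes with a trend) in R 4.3.3, over all 10590 genes, with Benjamini-Hochberg adjustment at 0.05. Changes are transgenic minus non-transgenic. Single probe sets were fitted among all 18582. Where a group had arrays below log2 5, these were set to that level and the fold is given as at least that large. Exact permutation tests are two-sided over 210 splits with 0.00476 as the smallest p. Simulated data were used to test the limma fit. The number of arrays limits the precision. That samples come from separate mice is per the labels.

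Members and lists were chosen with earlier results of these data known. The naming rule took every member, then per list the 3 higher and 3 lower genes with the smallest adjusted p; the text gives most of these and marks genes outside the rule. Per marker list it took the 3 brightest. Trends of single probe sets and of differences between them within arrays were alternatives added after seeing the data. Alternatives were filter, normalization, log2(value + 16), variance model, array weights, probe set choice, replicate number range and leaving out each sample. Figures were drawn with matplotlib 3.10.9.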

Additional observations from a re-analysis of the deposited data

Results flagged for a closer look

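In 148 groups of 4 or 6 samples, 11 held a sample farther from its neighbours than Dixon's 95% limit, where chance gives about 1 in 20. At the brightest Atp2a2 probe set, transgenic replicate 6 was at log2 14.32, the highest, with the next at 14.15. At the Atp2a2 probe set 1452363_a_at, transgenic replicate 12 was lowest at 8.45. At the Atp2b1 probe set 1452969_at, non-transgenic replicate 1 was highest at 7.91, and without it the fall was still called. At the Trpm7 probe set 1416800_at, transgenic replicate 13 was highest at 5.83, with the next at 5.35.

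Transgenic replicate 6 was highest for Itprip at 9.68 and for Trpm6 at 8.87. Non-transgenic replicate 1 was lowest for Hsp90b1 at 12.21, and non-transgenic replicate 2 lowest for Ppp3ca at 6.32. For the vessel marker Col4a1, non-transgenic replicate 8 was highest at 8.19 and transgenic replicate 5 lowest at 7.33. For Col4a2, non-transgenic replicate 7 was highest at 7.00.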

How the results depend on the processing

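No paired analysis was possible because the groups share no replicate number. The count of genes changed was 1913 within samples 1 to 6 and 2264 within samples 7 to 13 (genes higher 1207 and 1241, genes lower 706 and 1023), 2501 at an adjusted p below 0.01, and 3383 to 3772 with each sample left out (1778 to 1954 higher, 1564 to 1913 lower). Other calcium genes changed numbered 26 within samples 1 to 6 and 20 within samples 7 to 13, with 14 higher in the latter and 2 and 6 lower, and 34 to 42 with each sample left out (24 to 28 higher, 9 to 14 lower). Fewer samples entered these fits. Calcium members changed numbered 1 with a filter level of 7 and after quantile normalization, and 0 to 1 with each sample left out.

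Trpm7 passed with a filter level of 7 (-0.78) and after quantile normalization (-0.81), and its probe set 1416800_at was at 0.024. The exact permutation p of Trpm7 was 0.0429 (-0.78), but it is not adjusted for the number of genes. The Itpr2 probe set 1444418_at passed by itself (-0.43). Signs turned as follows. Cacna1h was at -0.0083 after quantile normalization and -0.11 within samples 7 to 13. Atp2a2 was at 0.029 after median centring, 0.052 within samples 1 to 6, and 0.12 and 0.057 at its further probe sets. Atp2b1 was at -0.087 with the mean of probe sets, -0.14 within samples 1 to 6 and -0.48 at 1452969_at, which passed by itself. Orai1 was at 0.031 after median centring, 0.021 with array weights, 0.10 with the mean of probe sets, 0.0037 within samples 7 to 13 and 0.21 at 1424989_at. Homer1, called at -0.41, was at 0.23 with the mean of probe sets and not called, and Camk2g at -0.066 there and -0.0081 within samples 7 to 13. With each sample left out, Itpr2 ran from -0.34 to -0.14, Trpm7 from -0.99 to -0.59, Cacna1h from -0.051 to 0.081, Atp2a2 from -0.048 to 0.014, Atp2b1 from -0.032 to 0.15, Orai1 from -0.038 to 0.051 and Stim1 from -0.28 to -0.04. The naming rule and the genes named after their values were seen gave 37 called calcium genes outside the members. They include Ahcyl2, Pdia4, Pip4k2c and Prkci, which are not described above. Of the 37, 13 lost the call within samples 1 to 6 and 18 within samples 7 to 13. The losses were 0 to 5 under the other settings that kept all samples. With each sample left out, the adjusted p of Ahcyl2 and Pdia4 reached 0.0805 and 0.0815 in limma. The cause was not tested. Dim probe sets such as those of Stim1 and Itpr3 limit what can be seen, since no detection flag is given.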
